A study of Mus musculus with 6 samples.

Results

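The immunoglobulin genes of the mouse were followed in hippocampal RNA-seq libraries from 3 wild-type (WT) mice and 3 mice labelled TG. The TG mice carried the G82R and L85P changes of the glutamate transporter gene Slc1a2 (GLT-1), placed in the germline by CRISPR knock-in on a C57BL/6N background, with founders crossed to C57BL/6 mice to give heterozygous F1 animals, and the WT mice were littermates. The methods of the study describe mostly male mice in both groups, the age and sex of each sequenced mouse were not given in the sources used here, and the labels name each library as a separate mouse. The members were the genes of the deposited table annotated as immunoglobulin constant or immunoglobulin variable, with Jchain added by name, 232 of 54532 genes. They comprised 113 heavy chain V genes and 8 heavy constant genes on chromosome 12, 100 kappa V genes, 2 V genes with no chain in their symbol (Gm42543 and Gm43218, without a read) and the kappa constant gene Igkc on chromosome 6, 3 lambda V and 4 lambda constant genes on chromosome 16, and Jchain on chromosome 5.

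An antibody is built of heavy and light chains. Each chain joins a variable region, which binds antigen and is assembled in a B cell by recombining a V segment with short J (and, in the heavy chain, D) segments, to a constant region, which for the heavy chain sets the isotype (IgM, IgD, IgG, IgE or IgA). A clone of B cells keeps its rearranged V genes, and when B cells mature into plasma cells immunoglobulin mRNA becomes one of their most abundant transcripts. The J chain, which is unrelated to the J segments, links IgM and IgA into polymers. In the brain, antibody-secreting cells are known mainly from the meninges and other borders, and the parenchyma of a healthy hippocampus holds few.

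Most immunoglobulin RNA was in 2 of the 3 TG libraries. TG2 and TG3 held 6109 and 9964 reads on the members, against 402 reads in TG1 and 575, 480 and 462 reads in WT1, WT2 and WT3. Scaled to the reads on genes of each library (RPM) these were 345 and 557 in TG2 and TG3, 24.9 in TG1 and 24.6 to 31.3 in the WT libraries. TG1 therefore lay within the WT range and the groups overlapped. Total reads on genes ran from 16081281 to 18751057 per library, so the 6 libraries were of like depth, and 3 reads on a gene of 1 kb corresponded to 0.160 to 0.190 FPKM, the deposited unit, which divides fragments by gene length and sequencing depth. The Slc1a2 level was 202, 199.5 and 177 FPKM in WT and 222, 207 and 217 FPKM in TG, a measure that does not show the engineered bases.

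The V genes that carried most of these reads are shown first, since they were among the leading kappa or heavy V genes of TG2 or TG3. Each run is a stretch of the second exon (the V exon), 5′ to 3′ on the coding strand, from GENCODE M21 transcripts on GRCm38. For the kappa pair, capitals mark the 57 of 300 bases at which the genes differ (81% identity), with Igkv1-110 at chr6:68270968-68271267 and Igkv1-135 at chr6:67610209-67610508, both on the plus strand. For the heavy pair, capitals mark the 12 of 300 bases at which the genes differ (96% identity), with Ighv1-80 at chr12:115912344-115912643 and Ighv1-82 at chr12:115952538-115952837, both on the minus strand. Ighv14-1, at chr12:113931953-113932252 on the minus strand, has no capitals because it was compared with no other gene.
Igkv1-110: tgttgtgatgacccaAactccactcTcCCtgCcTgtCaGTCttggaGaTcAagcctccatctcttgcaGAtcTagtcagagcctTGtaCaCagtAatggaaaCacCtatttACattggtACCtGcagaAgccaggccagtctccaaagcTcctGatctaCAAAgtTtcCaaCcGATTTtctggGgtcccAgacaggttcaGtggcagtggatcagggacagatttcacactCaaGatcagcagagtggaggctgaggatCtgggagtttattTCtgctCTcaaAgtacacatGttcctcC
Igkv1-135: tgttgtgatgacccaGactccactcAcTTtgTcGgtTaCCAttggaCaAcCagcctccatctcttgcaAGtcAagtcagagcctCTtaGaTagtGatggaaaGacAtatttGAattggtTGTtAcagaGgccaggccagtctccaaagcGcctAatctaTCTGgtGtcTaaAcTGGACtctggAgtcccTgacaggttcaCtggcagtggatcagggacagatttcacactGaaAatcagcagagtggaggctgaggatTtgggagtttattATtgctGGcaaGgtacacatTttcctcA
Ighv1-80: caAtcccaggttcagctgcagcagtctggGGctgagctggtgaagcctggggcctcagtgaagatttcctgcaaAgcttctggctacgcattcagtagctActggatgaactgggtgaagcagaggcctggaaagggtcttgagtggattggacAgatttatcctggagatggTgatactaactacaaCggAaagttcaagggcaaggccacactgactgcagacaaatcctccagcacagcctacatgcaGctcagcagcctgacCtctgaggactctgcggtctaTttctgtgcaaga
Ighv1-82: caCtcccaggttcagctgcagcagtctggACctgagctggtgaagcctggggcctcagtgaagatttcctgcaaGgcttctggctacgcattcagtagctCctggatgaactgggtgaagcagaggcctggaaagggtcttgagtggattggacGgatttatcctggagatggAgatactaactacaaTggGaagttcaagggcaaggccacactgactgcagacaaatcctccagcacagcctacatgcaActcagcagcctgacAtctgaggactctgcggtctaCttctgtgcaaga
Ighv14-1: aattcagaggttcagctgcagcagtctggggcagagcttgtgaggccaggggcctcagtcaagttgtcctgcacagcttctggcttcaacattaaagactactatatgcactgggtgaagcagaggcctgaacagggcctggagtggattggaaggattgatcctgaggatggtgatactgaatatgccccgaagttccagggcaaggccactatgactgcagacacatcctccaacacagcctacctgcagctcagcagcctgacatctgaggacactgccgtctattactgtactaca

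Of the 232 members, 132 had a read in at least 1 library and 100 had none. The members without a read were 51 heavy V genes, 44 kappa V genes, the 2 unnamed-chain V genes, 1 lambda V gene, and the constant genes Ighe (IgE) and Iglc4. A mean of at least 0.1 FPKM over the 6 libraries was required for testing, which 83 members reached. Among these, 18 averaged at least 10 reads per library. Because the mean was taken over all libraries, a V gene could pass this filter through TG2 or TG3 alone, and such a gene had to differ.

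The light chain constant gene Igkc (ENSMUSG00000076609, chr6:70726435-70726966) was the most abundant member. Its level was 8.74, 8.38 and 5.52 FPKM in WT1, WT2 and WT3, 7.25 FPKM in TG1, 153 FPKM in TG2 and 257 FPKM in TG3. TG1 lay between the WT libraries, whereas TG2 was 20.2 times and TG3 34.0 times the WT mean of 7.55 ± 1.76 FPKM (SD, n = 3). The log2 fold change of TG over WT, taken on log2(FPKM + 0.1), was 3.14 with an SE of 1.20, and it did not pass the correction over all 20952 genes tested (adjusted p = 0.786, limma). In bulk tissue, a difference in the number of cells of a type and in RNA per cell cannot be told apart, here and for every member below.

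The lambda constant genes were scarce. Iglc1 had 0.238, 0.136 and 0 FPKM in WT, 0.139 FPKM in TG1, 2.21 FPKM in TG2 and 3.66 FPKM in TG3. Iglc2 had 0.0884, 0 and 0.0873 FPKM in WT and 0.310, 2.28 and 1.45 FPKM in TG1, TG2 and TG3, so that all TG values exceeded all WT values, although TG1 held 3 reads. Its log2 fold change was 2.91 ± 0.66 (SE) with an adjusted p of 0.786 (limma). Iglc3 had a read in WT1, TG2 and TG3 only, at 0.120, 0.864 and 0.490 FPKM. Lambda reads made up 3.32% of light chain constant reads in TG2 (95% Wilson interval 2.53 to 4.35%) and 1.99% in TG3 (1.51 to 2.61%). Kappa was thus the main light chain in both, and in WT and TG1 lambda rested on 1 to 4 reads per library. These intervals cover counting error only, since the reads carry no molecular identifiers.

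Among the heavy constant genes, the IgM gene Ighm (chr12:113418558-113422730) led in WT. Ighm had 6.08, 6.30 and 5.49 FPKM in WT, 5.16 FPKM in TG1, 24.99 FPKM in TG2 and 65.7 FPKM in TG3. TG2 was 4.19 times and TG3 11.02 times the WT mean, while TG1 was below all 3 WT libraries (log2 fold change 1.76 ± 0.79 SE, adjusted p = 0.786, limma). The IgA gene Igha had 2.43, 1.74 and 1.86 FPKM in WT, 1.26 FPKM in TG1, 18.7 FPKM in TG2 and 11.8 FPKM in TG3. It was the heavy constant gene with more than 100 reads in a library that was higher in TG2 than in TG3 (log2 fold change 1.68 ± 0.88 SE, adjusted p = 0.789, limma).

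The IgG genes differed from one another. Ighg2c, an IgG subclass of C57BL/6 mice, had 1.22, 0.980 and 0.604 FPKM in WT, 1.43 FPKM in TG1, 29.0 FPKM in TG2 and 32.6 FPKM in TG3. TG2 and TG3 were 31.0 and 34.8 times the WT mean and TG1 lay just above WT1 (log2 fold change 3.50 ± 1.09 SE, adjusted p = 0.786, limma). Ighg2b had 0.303, 0.532 and 0.160 FPKM in WT, 0.354 FPKM in TG1, 12.3 FPKM in TG2 and 22.5 FPKM in TG3. With TG2 at 37.2 and TG3 at 67.9 times the WT mean, Ighg2b showed the widest ratio of the constant genes that had more than 20 WT reads in all (log2 fold change 3.64 ± 1.33 SE, adjusted p = 0.786, limma). Ighg3 had no read in WT and 1, 22 and 18 reads in TG1, TG2 and TG3, at least 7.24-fold higher in TG2 and at least 5.88-fold higher in TG3 when 3 reads are set as the upper limit in each WT library.

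Ighg1, another IgG subclass, did not follow the split between TG1 and the other TG libraries. Ighg1 had 0.188, 0.239 and 0.288 FPKM in WT and 0.707, 0.818 and 1.13 FPKM in TG1, TG2 and TG3, from 9, 10 and 14 reads and 29, 38 and 53 reads. All 3 TG libraries were above all 3 WT libraries, and the log2 fold change was 1.53 ± 0.27 (SE), with an adjusted p of 0.519 (limma). Ighd, which encodes the IgD chain carried by naive B cells, stayed at 2 to 7 reads in each library. Its level was 0.0854, 0.163 and 0.0562 FPKM in WT and 0.233, 0.0881 and 0.0874 FPKM in TG, a log2 fold change of 0.21, and TG2 and TG3 were within the WT range. Ighd differed in this from the other heavy constant genes with reads, all of which were higher in TG2 and TG3 than in any WT library.

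Jchain (chr5:88519809-88527891), whose product joins IgM and IgA, followed the constant genes. Jchain had 0.645, 0.689 and 0.509 FPKM in WT, 0.326 FPKM in TG1, 6.25 FPKM in TG2 and 10.03 FPKM in TG3. TG2 was 10.2 times and TG3 16.3 times the WT mean, and TG1, with 13 reads, was the lowest library (log2 fold change 2.09 ± 1.07 SE, adjusted p = 0.789, limma).

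**Figure D1:**
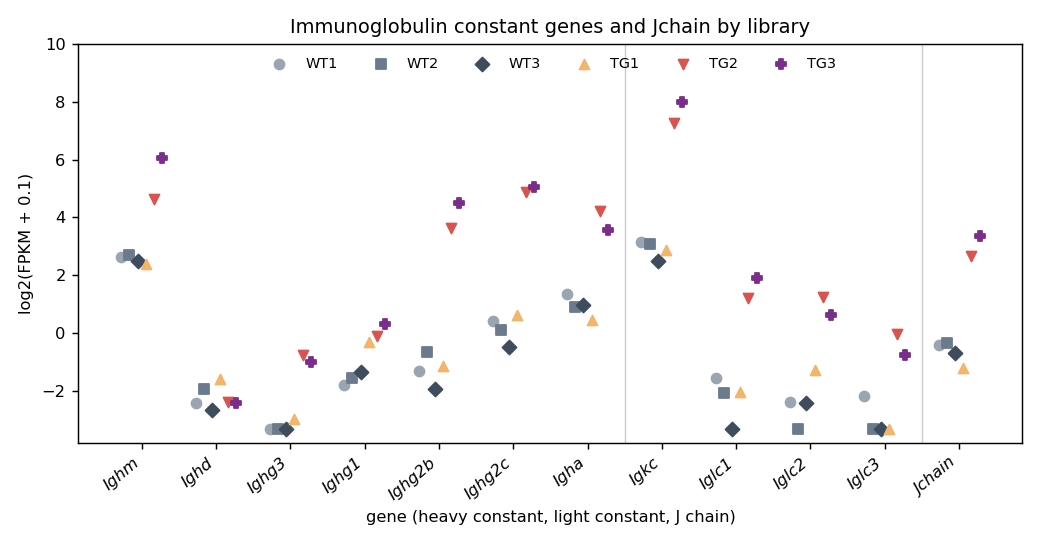
Level of each immunoglobulin constant gene with a read and of Jchain, as log2(FPKM + 0.1) on the y axis, with 1 point per library. TG2 and TG3 lie above the WT points for every gene but Ighd, TG1 lies among or near the WT points for most genes, and a gene without a read sits at the lowest value.

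The proportions of the chains also differed between libraries. The ratio of light to heavy constant FPKM was 0.891, 0.855 and 0.663 in WT and 0.840 in TG1, and 1.83 and 1.95 in TG2 and TG3. Kappa and lambda light chain FPKM together were thus below the heavy chain FPKM in 4 libraries and above it in TG2 and TG3. Heavy V reads per heavy constant read were 0.0360, 0.0798 and 0.0798 in WT, 0.0415 in TG1, 0.157 in TG2 and 0.165 in TG3. For kappa the ratio was 0.581, 0.361 and 0.527 in WT, 0.361 in TG1, 0.488 in TG2 and 0.579 in TG3, so that the kappa ratio overlapped between libraries and the heavy ratio of TG2 and TG3 did not.

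The isotype make-up of TG2 and TG3 differed from that of WT and between the 2 libraries. Ighm accounted for 59.0, 63.3 and 64.9% of heavy constant FPKM in WT, 56.3% in TG1, 28.9% in TG2 and 48.9% in TG3. Together the 4 IgG genes accounted for 16.6, 17.6 and 12.4% in WT, 27.5% in TG1, 49.4% in TG2 and 42.2% in TG3. Their share was above every WT library in all 3 TG libraries, the smallest of them from 289 heavy constant reads. Igha accounted for 23.6, 17.48 and 21.996% in WT, 13.7% in TG1, 21.6% in TG2 and 8.80% in TG3. As a share of reads, Igha was 29.0% in TG2 (95% Wilson interval 27.4 to 30.6%) and 11.98% in TG3 (11.1 to 12.9%), intervals that did not overlap.

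These shares depend on the gene length behind FPKM, which for Igha, Ighg1, Ighg2b and Ighg3 is much longer than the secreted-form transcript, while for Ighm and Ighg2c it is closer to it. With reads divided by the secreted length instead, an alternative chosen after the data were seen, the Ighm share was 46.8, 51.1, 51.8 and 45.2% in WT1, WT2, WT3 and TG1, 21.9% in TG2 and 39.8% in TG3. The IgG share on that scale was 16.1, 19.4, 13.4 and 29.9% in WT1, WT2, WT3 and TG1 and 46.7 and 46.4% in TG2 and TG3. The order of the 6 libraries by IgM share was the same on both scales, and the IgG share again was highest in TG2 and TG3.

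**Figure D2:**
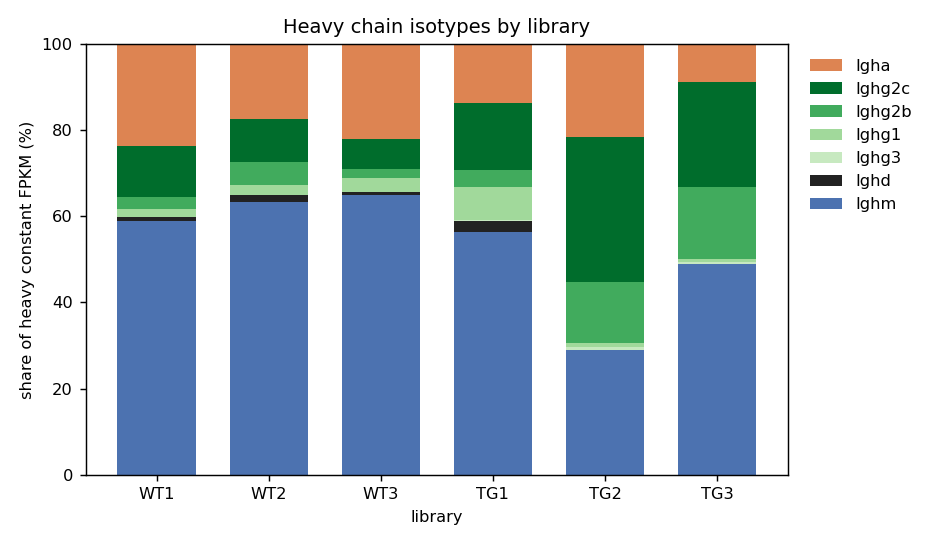
Share of the summed heavy constant FPKM (y axis, percent) taken by each isotype gene in each library, as stacked bars that add to 100%. The Ighm part is smallest in TG2 at 28.9%, and the green IgG parts together are largest in TG2 and TG3 at 49.4% and 42.2%.

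V genes were read more widely in TG2 and TG3. A read was found on 31, 28 and 27 of 218 V genes in WT, 19 in TG1, 86 in TG2 and 91 in TG3. Those with a read in TG2 and in TG3 shared 70 genes, 81.4% of the TG2 set and 76.9% of the TG3 set. At 10 or more reads, TG2 had 20 V genes and TG3 had 19, of which 12 were shared (60% and 63.2%). Over WT and TG1, 1 V gene in 1 library reached 10 reads, which was Igkv1-110 in WT1.

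Among kappa V genes, Igkv1-110 led in both TG2 and TG3. It had 12, 1 and 1 reads in WT, 1 in TG1, 444 in TG2 and 562 in TG3, which was 62.4% of kappa V reads in TG2 (95% Wilson interval 58.8 to 65.9%) and 39.4% in TG3 (36.9 to 41.9%). In FPKM it had 1.62, 0.154 and 0.133 in WT, 0.158 in TG1, 61.8 in TG2 and 77.6 in TG3 (log2 fold change 4.52 ± 2.12 SE, adjusted p = 0.786, limma). Igkv1-135, whose V exon is printed beside it above, had 1, 0 and 4 reads in WT, 1 in TG1, 52 in TG2 and 511 in TG3. This pair thus took most kappa V reads of TG3, whereas Igkv1-110 alone took most of those in TG2. Together with the rest of their family, Igkv1 genes held 73.8% of kappa V reads in TG2 and 75.7% in TG3.

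Among other kappa V genes, some were high in both libraries, some mostly in TG3 and some mostly in TG2. Igkv8-24 had 2, 0 and 1 reads in WT, 0 in TG1, 5 in TG2 and 121 in TG3. Igkv10-96 had 6, 3 and 4 reads in WT, 2 in TG1, 45 in TG2 and 49 in TG3. Igkv3-2 had 1 read in WT1, none in WT2, WT3 and TG1, 27 in TG2 and 51 in TG3. Igkv10-96 had like counts in both libraries, Igkv3-2 had more in TG3, and Igkv8-24 was almost all in TG3. Igkv1-117 went the other way, with 1, 7 and 2 reads in WT, 0 in TG1, 27 in TG2 and 7 in TG3. Igkv14-111, the leading kappa V gene of WT3, had 6, 0 and 7 reads in WT, 0 in TG1, 9 in TG2 and 3 in TG3. Its log2 fold change of -0.15 was the lowest of the tested members. The lambda V genes Iglv1 (1, 1, 1, 0, 22 and 22 reads in WT1, WT2, WT3, TG1, TG2 and TG3) and Iglv3 (1, 0, 0, 1, 21 and 9 reads) were read in both.

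Among heavy V genes, the leading gene differed between TG2 and TG3. Ighv1-82 had no read in WT or TG1, 81 reads in TG2 and 86 in TG3. It was the leading heavy V gene of TG2, with 16.8% of heavy V reads, and was at least 26.7-fold higher in TG2 and 28.1-fold higher in TG3 than the limit of 3 reads in each WT library. Ighv1-80, its near copy at 96% identity over the exon printed above, had 1, 0 and 4 reads in WT, 3 in TG1, 80 in TG2 and 81 in TG3. Both libraries thus held near-equal counts of this pair.

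Ighv14-1 had 0, 0 and 2 reads in WT, 0 in TG1, 1 in TG2 and 176 in TG3. It led the heavy V genes of TG3 with 22.4% of their reads and was within the WT counts in TG2. Ighv3-6 had 1, 2 and 7 reads in WT, 0 in TG1, 53 in TG2 and 79 in TG3. Ighv10-1 had 2 reads in WT2 and none in WT1, WT3 and TG1, with 13 in TG2 and 66 in TG3. By family, Ighv1 genes held 57.4% of heavy V reads in TG2 and 46.8% in TG3, Ighv14 genes 5.38% and 24.8%, and Ighv3 genes 21.5% and 10.4%. A pair of genes outside the naming rule, picked after their values were seen, showed the split in both directions: Ighv1-42 had 1 read in TG2 and 76 in TG3, and Ighv3-8 had 46 and 3, each with no read in WT or TG1.

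**Figure D3:**
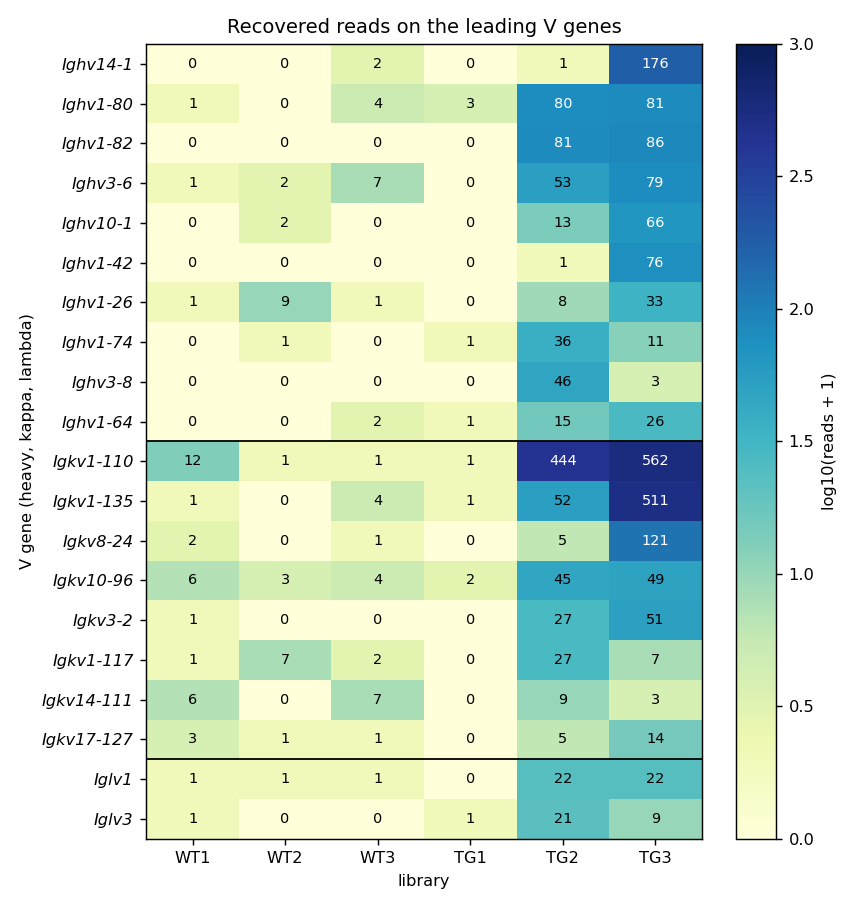
Recovered reads, printed in each cell and coloured as log10(reads + 1), on the 10 heavy, 8 kappa and 2 lambda V genes (rows) with the most reads, in each library (columns). Reads are concentrated in the TG2 and TG3 columns, with Ighv14-1 at 1 and 176 reads and Igkv1-110 at 444 and 562 reads there.

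Near-identical V genes limit these counts. Of the 50-base windows in the exons of a gene, the part found again in some other gene was 50.9% for Igkv1-110, 45.4% for Ighv14-1, 36.5% for Igkv1-135, 18.5% for Ighv1-80, 14.8% for Ighv1-82, 2.91% for Ighv3-6 and 0 for Igkv8-24. Igkv1-110 shared most with Igkv1-117 (50.3%), Igkv1-135 with Igkv1-133 (22.3%) and Ighv14-1 with Ighv14-2 (29.1%). It was 0 for Igkc, Ighm, Igha and Jchain, 5.49% for Ighg2c and 4.15% for Ighg2b. Assignment between V genes of a family is uncertain, more so because rearranged V genes can carry mutations, which were not measured here. The constant gene counts are little touched by this uncertainty.

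**Figure D4:**
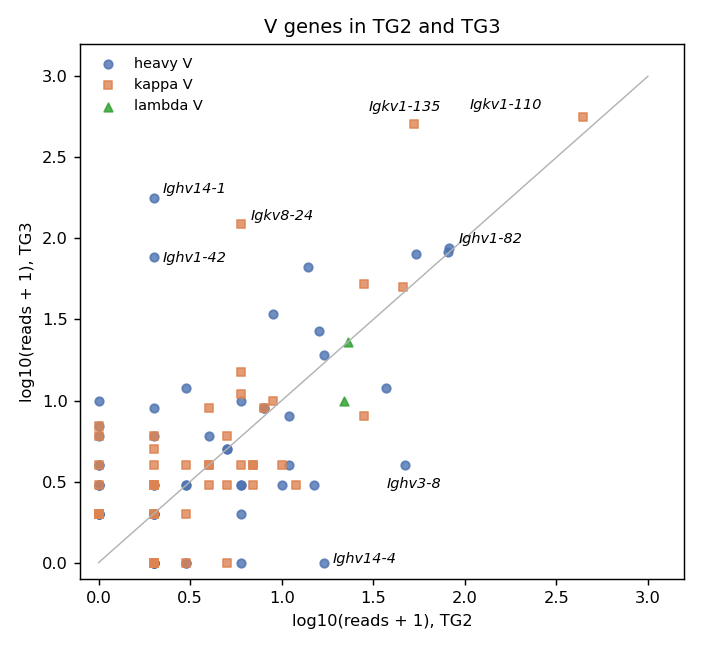
Reads on each V gene in TG2 (x axis) and TG3 (y axis), both as log10(reads + 1), with 1 point per V gene that had a read in either library and a line of equal counts. Igkv1-110 and Ighv1-82 lie near the line, and Ighv14-1, Igkv8-24 and Ighv1-42 lie far above it.

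In the test over all genes, no member passed at an adjusted p under 0.05, with 0.178 as the smallest adjusted p of a member (Ighv1-76). Among all genes tested 0.00955%, 2 genes, passed that threshold. At an unadjusted p under 0.05, 21 of the 83 tested members were higher in TG and 0 lower, against 3.13% of all genes higher and 2.78% lower. They were 9 heavy V, 4 kappa V and 1 lambda V gene and the 7 constant genes Ighg1, Ighg2b, Ighg2c, Ighg3, Igkc, Iglc1 and Iglc2, and 14 of the 21 averaged under 10 reads per library. The median log2 fold change of the tested members was 1.69, with 82 of 83 above 0, while that of all genes tested was -0.00197. Here the filter described above favours members that were high in TG2 or TG3.

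Ighv1-76, the member with the smallest p, rested on few reads, with none in WT and 3, 3 and 5 reads in TG1, TG2 and TG3. The other V genes with an unadjusted p under 0.05 were Ighv1-80, Ighv1-82, Ighv1-74, Ighv1-64, Ighv5-16, Ighv1-34, Ighv14-2, Ighv9-3, Igkv1-135, Igkv12-46, Igkv3-4, Igkv6-13 and Iglv3, with log2 fold changes from 1.63 to 4.61. All 3 TG values exceeded all 3 WT values for 11 of the 83 tested members, against 6.35% of all genes tested. TG2 and TG3 were the 2 highest libraries for 60 of the 83, against 6.43% of all genes, a share that the filter raises for the same reason. TG3 was the highest library for 45 members, TG2 for 33, TG1 for 4 and WT3 for 1.

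A single library, TG1, set the outcome of the test. With TG1 left out, which removes the TG library without the signal and so does not test TG against WT, 84 members were tested, of which 62 were higher in TG at an unadjusted p under 0.05 (2.51% of all genes) and 9 passed at an adjusted p under 0.05 (0.0524% of all genes, 11 genes). These 9 were the constant genes Igkc (log2 fold change 4.72, adjusted p = 0.0142), Ighg2c (4.94, adjusted p = 0.0142), Ighg2b (5.37, adjusted p = 0.0362) and Igha (2.84, adjusted p = 0.0393), Jchain (3.50, adjusted p = 0.0231), and the V genes Ighv1-82, Ighv5-16, Igkv10-96 and Iglv1, all by limma. Ighm did not pass in that fit (2.75, adjusted p = 0.188). That fit compares 2 TG mice with 3 WT mice, and the filter then rests on TG2 and TG3 for genes such as Ighv1-82 and Ighv5-16, which had no read in WT and had to differ.

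Of the defining B cell genes other than immunoglobulins, few had more than a handful of reads. The B cell surface gene Ms4a1, which encodes CD20, had no read in WT and 3 reads in each TG library, 0.0268 to 0.0306 FPKM. Cd79a, a part of the B cell receptor, had 0.0371, 0.170 and 0.220 FPKM in WT, 0.0434 in TG1, 0.383 in TG2 and 0.570 in TG3, from 1 to 15 reads. Of the 6 genes tested from a B cell list of 16, none had an unadjusted p under 0.05 (limma), and Cd37, a tetraspanin of leukocytes, held over 0.5 of the list's FPKM in WT at 1.33 to 1.53 FPKM in every library. The summed FPKM of the list was 2.49 to 2.63 in WT, 2.35 in TG1, 3.21 in TG2 and 3.95 in TG3.

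From a plasma cell list of 18, 15 were tested, 2 were higher in TG at an unadjusted p under 0.05 and 0 were lower. Mzb1, a chaperone for antibody assembly in the endoplasmic reticulum, had 0.0598, 0.205 and 0.177 FPKM in WT, 0.209 in TG1, 1.11 in TG2 and 0.979 in TG3, high in TG2 and TG3 and just above the WT range in TG1 (adjusted p = 0.786, limma). Tent5c had 0.532, 0.386 and 0.569 FPKM in WT and 0.777, 1.78 and 0.781 in TG (adjusted p = 0.786, limma). The plasma cell surface gene Sdc1 had 0.511, 0.244 and 0.0841 FPKM in WT and 0.564, 0.483 and 0.698 in TG. The secretory regulator Xbp1, which most cells express, had 20.8 to 22.3 FPKM in WT and 22.1 to 23.6 in TG. Tested genes of the list with a negative log2 fold change were Sec11c (-0.27), Eaf2 (-0.51) and Tnfrsf13b (-0.086). Sec11c had 15.7, 15.6 and 19.3 FPKM in WT and 11.9, 14.9 and 15.1 in TG. The summed FPKM of the list was 63.2 to 68.8 in WT, 64.0 in TG1, 73.3 in TG2 and 71.6 in TG3.

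Immunoglobulin receptors and the factors that call in or sustain B cells were also counted. For these and the other lists, calls stand beside 3.13% of all genes tested higher and 2.78% lower at an unadjusted p under 0.05 (limma). Of 7 tested receptor and transporter genes 1, the IgG receptor gene Fcgr4, was higher at an unadjusted p under 0.05, on at most 6 reads per library, and Pigr, which carries polymeric IgA and IgM across epithelia, had no read. Of 10 survival and homing genes, Vcam1, an adhesion molecule of endothelium, was higher with 3.21, 2.33 and 2.56 FPKM in WT and 4.03, 5.13 and 4.06 in TG (log2 fold change 0.69 ± 0.15 SE, adjusted p = 0.786, limma), and Ccl28 was lower. The B cell attractant Cxcl13 had no read in WT and TG1 and 4 and 5 reads in TG2 and TG3. Of 5 class switching and recombination genes, 1 (Apex1) was lower.

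Markers of other cells were set beside the immunoglobulin values, and their part in these values was not tested. Choroid plexus genes summed to 59.8 to 88.3 FPKM in WT, 1230 in TG1, 3875 in TG2 and 70.9 in TG3. Of these, 10 of 15 genes were higher at an unadjusted p under 0.05 (limma). Ttr was the most abundant of the list and Kcnj13 had the smallest p. Choroid plexus RNA was high in TG1 and TG2 and within the WT range in TG3. Immunoglobulin RNA was high in TG2 and TG3 and within the WT range in TG1, and a link between them was not tested. The T cell list summed to 2.23 to 2.77 FPKM in WT, 2.47 in TG1, 4.88 in TG2 and 4.62 in TG3. Of 8 tested genes 1, Trbc2, was higher. Trac, the most abundant of the list, had 0.810, 0.596 and 1.43 FPKM in WT and 0.338, 1.31 and 0.829 in TG. Its log2 fold change was -0.25, and those of the other tested genes were positive. The T cell sum was 2.02 and 1.92 times the WT mean in TG2 and TG3, while the immunoglobulin constant sum was 14.1 and 22.9 times. Blood genes summed to 152 to 226 FPKM in WT and 166 to 182 in TG, with 0 of 9 called. Meningeal genes summed to 221 to 630 FPKM in WT and 346.5 to 513 in TG. Ptgds held most of that sum in every library, at 192 to 574 FPKM in WT and 264 to 467 in TG. Of the 12 genes 1, Igfbp2, was higher, with 18.8, 11.8 and 12.3 FPKM in WT and 36.1, 63.5 and 18.5 in TG. Microglial genes summed to 92.5 to 104 FPKM in WT, 85.5 in TG1, 116 in TG2 and 114 in TG3, so that TG1 was lowest and TG2 and TG3 highest, with 1 of 8 higher. Border macrophage genes summed to 2.30 to 3.48 FPKM in WT and 3.76 to 4.11 in TG, above WT in all 3 TG libraries, with 0 calls of 6. Among hippocampal neuron genes 1 of 10 was lower, and the neuronal sum ran from 1044 to 1256 FPKM across the libraries. No gene of these lists passed at an adjusted p under 0.05 (limma).

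**Figure D5:**
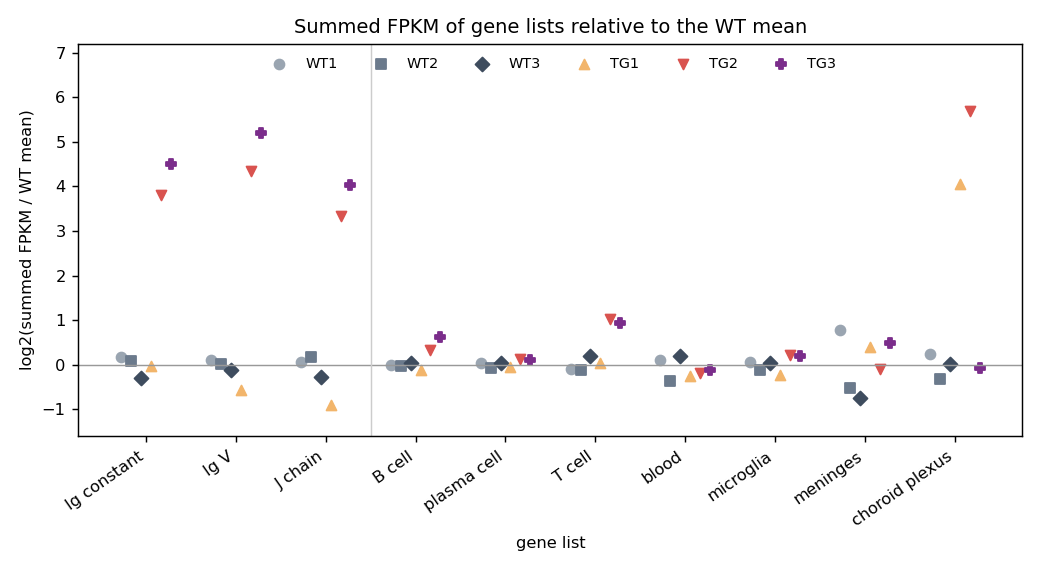
Summed FPKM of the immunoglobulin constant genes, V genes and Jchain and of marker lists of other cells, as log2 of the ratio to the mean of the 3 WT libraries, with 1 point per library. The immunoglobulin sums are high in TG2 and TG3 and near 0 or below in TG1, whereas the choroid plexus sum is high in TG1 and TG2 and near 0 in TG3.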

How the data were processed

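Total RNA of the hippocampus was sequenced from 6 mice, 3 per group. The labels name a Qiagen RNeasy extraction and a SMARTer mRNA library kit, whereas the methods of the study name Trizol and a NEBNext Ultra kit. Gene values were deposited by the authors as FPKM from HTSeq counts, on GRCm38 (mm10) per the submitters' processing notes. The aligner and strand setting are not given in the sources used here.

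Read counts were recovered from FPKM, gene length and a divisor per library found from the steps between low values, and 100% came out whole within 0.05 reads. They serve for depth, shares (95% Wilson intervals) and as the limit of 3 reads for a gene without a read. TG and WT were compared with limma 3.58.1 (R 4.3.3, trended eBayes) on log2(FPKM + 0.1) for genes averaging 0.1 FPKM or more, two-sided, with Benjamini-Hochberg adjustment over 20952 genes. The script was tested on simulated data. With 3 against 3 libraries, an exact two-sided permutation p cannot go below 0.1. P-values measure the spread between mice of these libraries only. Python 3.11.15, pandas 2.3.3, numpy 2.4.6, scipy 1.17.1 and matplotlib 3.10.9 were used. Members matched GENCODE M21 in all 232 cases.

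Genes named were every constant gene and Jchain with a read, the 5 V genes of each chain with the highest mean FPKM, the leading V gene of each library and chain, every member with an unadjusted p under 0.05, and from each marker list its highest gene, its smallest p and its defining genes. Others were named after their values were seen, and some genes under this rule are not reported here. The members and lists were chosen with earlier results of these data known. Alternatives were pseudocounts of 0.01 and 1, other filters, eBayes without trend, limma-voom on recovered reads, a replicate block, each library left out in turn and, added after seeing the data, the secreted length for isotype shares and each TG library against the WT mean.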

Additional observations from a re-analysis of the deposited data

How the results depend on the processing

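The number of members higher in TG at an unadjusted p under 0.05 (21) was 9 of 18 when genes needed at least 10 reads on average and 13 with eBayes without trend, and it ran from 9 (without WT3) to 62 (without TG1) when a library was left out. The number at an adjusted p under 0.05 (0) was 1 with eBayes without trend, which was Ighv1-76, and 0 to 9 when a library was left out. Without any other single library it was 0, and limma-voom on recovered reads gave 0, with 17 higher at an unadjusted p under 0.05. The median log2 fold change of the tested members (1.69) was 3.34 with a pseudocount of 0.01, 0.55 with a pseudocount of 1, 2.87 with at least 10 reads and 1.08 over 132 members with no filter (28 higher), and 1.54 to 2.55 when a library was left out. The log2 ratio of summed constant FPKM in TG to WT was 3.66, and for TG1 alone it was -0.041. The shift with the pseudocount follows from its construction on low values. Replicate numbers did not pair the mice (correlations of deviations 0.0125, 0.0434 and 0.00314), and with a replicate block 26 members were higher, 0 lower and 0 passed adjustment. For settings other than the main fit and the fit without TG1, the share of all genes called is not given here. Their counts therefore show movement between settings and not an excess among members. Over 34 named members, 412 values kept direction and side of the threshold, 10 newly passed it, 9 of them without TG1, and 0 were weaker or reversed. No member passed in the main fit, so none could lose the threshold, and most values that kept their side stayed above it. V genes with under 10 reads limit any statement on single genes.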

Other observations

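Other immunoglobulin segments were not among the members. The 14 J genes of the table had 7, 1 and 0 reads in WT, then 7, 11 and 18 in the TG libraries 1, 2 and 3, the 19 D genes had none, and of 155 V pseudogenes 1 had reads, 2 in WT1.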
